A study of Mus musculus with 28 samples.

Results

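The genes described here make, take up and export cholesterol in the mouse retina, and their RNA was compared between retinas whose optic nerve had been crushed and retinas whose nerve was intact. They are 35 genes taken by symbol from a table of 35999 genes: 20 enzymes of cholesterol synthesis, 5 genes that control it through the SREBP transcription factors, 4 genes of uptake and transport inside the cell, 4 genes of export and of the LXR receptors, and 2 genes of cholesterol storage and hydroxylation. All 35 were found and all 35 passed the filter for testing, a mean of at least 10 normalized counts over the libraries.

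Cholesterol is built from acetyl-CoA through mevalonate, the isoprenoids farnesyl and geranylgeranyl diphosphate, squalene and lanosterol. When sterols in the endoplasmic reticulum run low, the escort protein SCAP carries SREBP out of that membrane, SREBP is cut, and its freed part switches on the genes of the synthetic enzymes, while INSIG proteins hold SCAP back when sterols are plentiful. When sterols are in excess, the oxysterol-sensing LXR receptors switch on exporters such as ABCA1. The retina makes cholesterol of its own and also takes it up from lipoproteins, Müller glia are known as a main site of its synthesis, and photoreceptors and ganglion cells are known to use it.

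Bulk RNA sequencing of polyadenylated RNA had been done on both retinas of each mouse 7 days after surgery. The right optic nerve was crushed (ONC), which injures the axons of the retinal ganglion cells, and the left nerve was left intact (CTRL). Over 7 days the mice were injected daily into the peritoneum with vehicle or with RGFP966, which inhibits the deacetylase HDAC3, at 10 mg/kg; the uncrushed eye of a treated mouse was thus exposed to the same agent. The groups were vehicle CTRL and vehicle ONC (6 mice, 2 females and 4 males) and RGFP CTRL and RGFP ONC (7 mice, 3 females and 4 males), 26 libraries of 13 mice in all. Left and right retina were taken as those of 1 mouse where their titles share treatment, sex and letter; the labels do not say outright that the letter names a mouse, and each count of mice below rests on it. The labels give no strain, genotype or age. Because the crush was always on the right, side and crush cannot be told apart, and an uncrushed eye of an operated mouse is not an eye of an unoperated one. The free-text label of 1 library, RGFP CTRL female A, speaks of crush while its title and condition name the intact nerve; title and condition were used.

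Library totals were 17700000 to 21900000 normalized counts (median 18700000). They were not even between the eyes: the crushed eye had the lower total in every mouse except RGFP966 male A. The cause of this difference was not tested. The injury was visible in retinal cell markers: 7 of 9 ganglion cell markers fell and 10 of 10 microglial markers rose with crush, and the summed ganglion cell markers were 7644 to 14094 in uncrushed and 2874 to 5286 in crushed eyes over both treatments, with no overlap. The summed microglial markers were 1283 to 2420.2 in uncrushed and 3991 to 8401 in crushed eyes, again with no overlap. In 8 Müller glia markers, 5 rose and 2 fell, and the sums overlapped (65863 to 81064 against 60294 to 92138). Of 7 rod markers 6 fell, and the rod sums were 1400000 to 2350000 in uncrushed and 1060000 to 1620000 in crushed eyes. For oligodendrocytes 1 of 3 tested markers rose (sums of 776 to 971 in uncrushed and 916 to 1267 in crushed eyes), and for pigment epithelium 1 of 4 fell (7664 to 10212 against 6678 to 9359). For monocytes and other leukocytes 1 of 4 tested markers rose, Ptprc, and the sums were 57.1 to 155 in uncrushed and 105 to 475 in crushed eyes. No marker was at 0 in every library of a group. The part of these shifts in the results below was not tested, and in such bulk tissue fewer cells of a type and less RNA per cell cannot be told apart.

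RNA of 11 of the 20 cholesterol-synthesis enzymes was lower in the injured retina at day 7. Averaged over the vehicle and RGFP966 mice, 13 of the 35 genes fell and 3 rose (limma with Benjamini-Hochberg adjustment over 15773 genes, adjusted p under 0.05); of all genes tested, 4.98% fell and 6.78% rose (11.8% in all). Of those 20 enzymes 1 rose and 16 had a change below 0, with a median log2 change of -0.24 against -0.01 for all genes tested. The remaining falls were Srebf2 and Insig1, and the remaining rises were Npc2 and Abca1. The changes were modest in size: among the 35 genes the log2 change ran from -0.52 (Insig1) to 0.40 (Abca1).

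At the entry to the pathway, 3 of 5 enzymes fell. Hmgcs1, which condenses acetoacetyl-CoA with acetyl-CoA to HMG-CoA (chromosome 13, 119690379 to 119708260, plus strand, mm10), was measured at 1104 to 1967 normalized counts in vehicle CTRL (median 1296), 899 to 1249 in vehicle ONC (median 1059), 1119 to 1629.9 in RGFP CTRL (median 1316) and 872 to 1398 in RGFP ONC (median 1019). Crushed eyes thus sat lower in both treatments but the ranges overlapped, with RGFP ONC male C alone high among its group. The log2 change was -0.35 ± 0.07 (SE; adjusted p = 0.00099, limma), and the crushed eye was the lower of the pair in 12 of 13 mice. Acat2, the cytosolic thiolase that makes acetoacetyl-CoA, fell by 0.25 ± 0.06 on the log2 scale (adjusted p = 0.00599, limma), from group medians of 324 and 302 normalized counts to 277 and 269.6 (the vehicle median stands first here and in what follows). Mvd, the decarboxylase that closes the mevalonate branch, fell by 0.28 ± 0.07 (adjusted p = 0.00344), from medians of 252 and 279 to 212 and 219. Both were lower in the crushed eye of 12 of 13 mice. Mvk, mevalonate kinase, did not pass the test (-0.14, adjusted p = 0.228; 257 to 447 normalized counts over all groups).

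Pmvk was the enzyme that rose. This kinase, which works between Mvk and Mvd (chromosome 3, 89454541 to 89469013, plus strand, mm10), was at 341 to 433 normalized counts in vehicle CTRL and 437 to 650.2 in vehicle ONC, and at 366 to 517 in RGFP CTRL and 355 to 749.6 in RGFP ONC. In vehicle mice every crushed eye was above every uncrushed eye (2.42% of all genes tested), whereas in RGFP966 mice the ranges overlapped. It rose by 0.36 ± 0.08 on the log2 scale (adjusted p = 0.00167, limma), in 12 of 13 mice.

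The largest fall among the enzymes was at the isoprenoid step. Fdps, farnesyl diphosphate synthase, makes the branch-point molecule that feeds sterols, dolichol, ubiquinone and protein prenylation (chromosome 3, 89093588 to 89101959, minus strand, mm10). It was at 549 to 858 normalized counts in vehicle CTRL (median 676) and 419.8 to 535 in vehicle ONC (median 459), and at 529 to 659 in RGFP CTRL (median 603) and 397 to 524 in RGFP ONC (median 456). Within each treatment every crushed eye was below every uncrushed eye, which held for 0.913% of all genes tested in vehicle mice and 0.533% in RGFP966 mice. The log2 change was -0.48 ± 0.06, a level 0.719 times that of the uncrushed eyes (adjusted p = 2.59e-06, limma), and the direction held in 13 of 13 mice. Idi1, the isopentenyl diphosphate isomerase, fell by 0.37 ± 0.10 (adjusted p = 0.0117), from medians of 526 and 482 to 375 and 419, and was lower in 11 of 13 mice. Ggps1, which makes geranylgeranyl diphosphate, was at 893 to 1385 over all groups and did not pass (-0.04, adjusted p = 0.712).

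From squalene to lanosterol, Fdft1 and Lss fell. Fdft1 is squalene synthase, the step at which the pathway commits to sterols (chromosome 14, 63145150 to 63179578, minus strand, mm10). It was at 781 to 1109 normalized counts in vehicle CTRL, 531 to 776 in vehicle ONC, 843 to 1017 in RGFP CTRL and 632 to 772 in RGFP ONC. Every one of the 13 crushed retinas was below every one of the 13 uncrushed retinas, a separation seen in no other of the 35 genes and in that direction in 0.158% of all genes tested. It fell by 0.39 ± 0.06 on the log2 scale (adjusted p = 4.54e-05, limma). Lss, the cyclase that forms lanosterol, fell by 0.32 ± 0.08 (adjusted p = 0.01), from medians of 1111 and 1059 to 939 and 821, in 12 of 13 mice. Sqle, the squalene epoxidase, was lower in 10 of 13 mice but did not pass (-0.18 ± 0.07, adjusted p = 0.119; 490.2 to 923 over all groups).

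**Figure D1:**
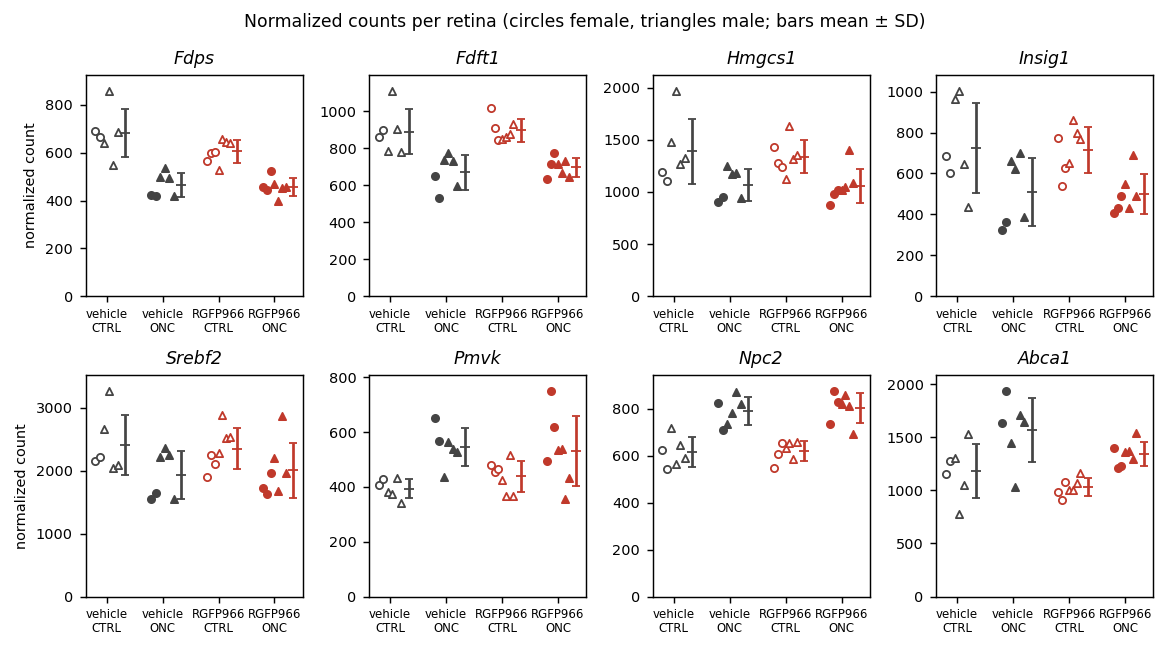
Normalized counts of selected genes in each library by group (points, 1 per retina; circles are females and triangles males; bars are mean ± SD, n = 6 vehicle and 7 RGFP966 mice). Fdft1 in the 13 crushed eyes reaches at most 776, below the lowest uncrushed eye at 781.

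In the conversion of lanosterol to cholesterol 4 of 9 enzymes fell. Dhcr7, which reduces the last double bond in one of the closing routes, was at 569 to 772 normalized counts in vehicle CTRL and 452 to 611 in vehicle ONC, and at 573 to 771 in RGFP CTRL and 486 to 579.9 in RGFP ONC. Overlap of crushed with uncrushed eyes was narrow, and the gene fell by 0.32 ± 0.06 on the log2 scale (adjusted p = 0.000603, limma) in 12 of 13 mice. Cyp51, the lanosterol demethylase that opens this segment, fell by 0.27 ± 0.06 (adjusted p = 0.00355), and Msmo1, the methylsterol oxidase, fell by 0.24 ± 0.06 (adjusted p = 0.0056). Both were lower in the crushed eye of 13 of 13 mice, as were Fdps and Fdft1; 1.09% of all genes tested were lower in every mouse. Nsdhl, a sterol dehydrogenase that acts after Msmo1, fell by 0.38 ± 0.09 (adjusted p = 0.00344), with medians of 278 and 301 in uncrushed and 207 and 225 in crushed eyes.

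The other 5 enzymes of that segment did not pass the test, and their estimates lay on both sides of 0. The sterol reductases Tm7sf2 and Lbr had log2 changes of -0.01 (adjusted p = 0.961) and 0.01 (adjusted p = 0.976), over ranges of 349 to 718 and 381 to 877 normalized counts. Hsd17b7, the ketosteroid reductase that works with Msmo1 and Nsdhl, had a change of -0.06 (adjusted p = 0.789; 128 to 288). For Ebp, the sterol isomerase, and Sc5d, the desaturase, the estimates were above 0, at 0.16 (adjusted p = 0.287; 179 to 325) and 0.14 (adjusted p = 0.412; 448 to 1052).

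Within single mice, the median difference over the 20 enzymes between the crushed and the uncrushed eye was below 0 in 13 of 13 mice. It ran from -0.41 (vehicle male D) to -0.07 (RGFP966 male A), with a median of -0.23, on the log2 scale. The same median over all genes tested ran from -0.02 to 0.03 in these mice. When every library was rescaled to the same total, the enzyme median was still below 0 in 13 of 13 mice but its middle value was -0.11.

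**Figure D2:**
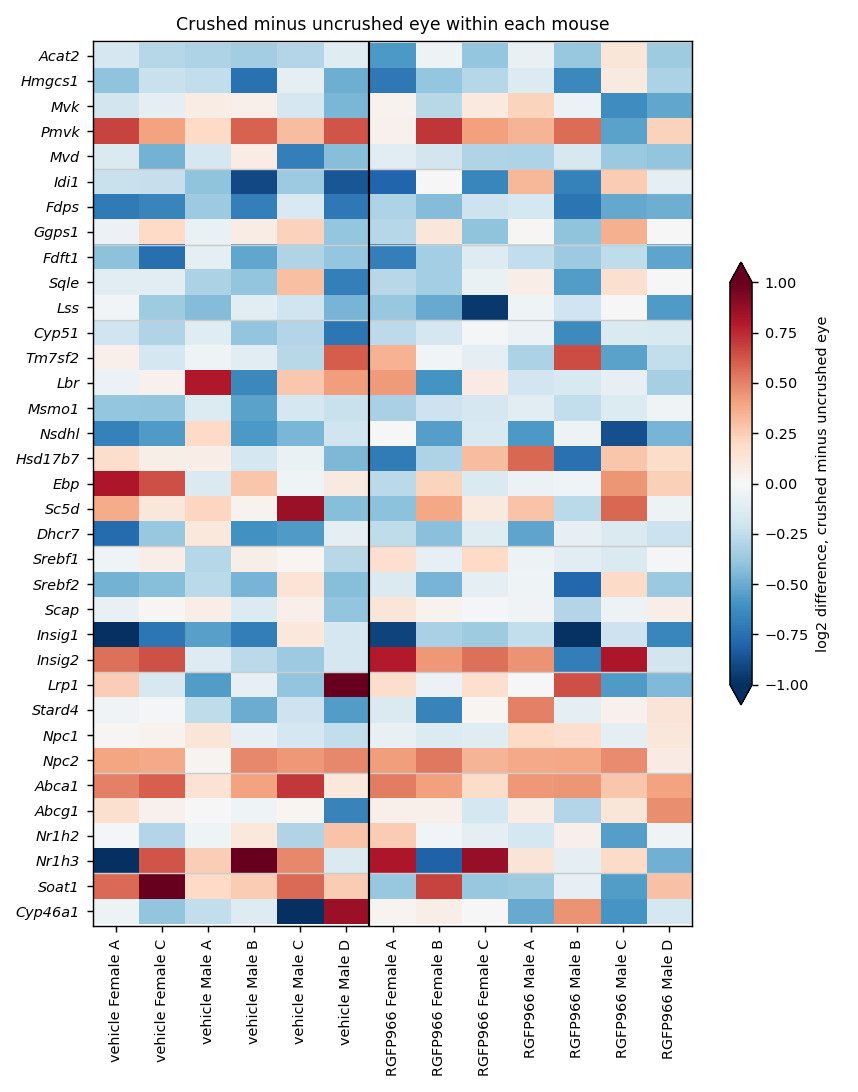
Log2 difference between the crushed and the uncrushed eye of each mouse (columns, 13 mice by treatment) for each of the 35 genes (rows by role); blue is lower and red is higher in the crushed eye, and colours stop at ± 1. Fdps, Fdft1, Cyp51 and Msmo1 are lower in 13 of 13 mice, and Npc2 and Abca1 are higher in 13 of 13.

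**Figure D3:**
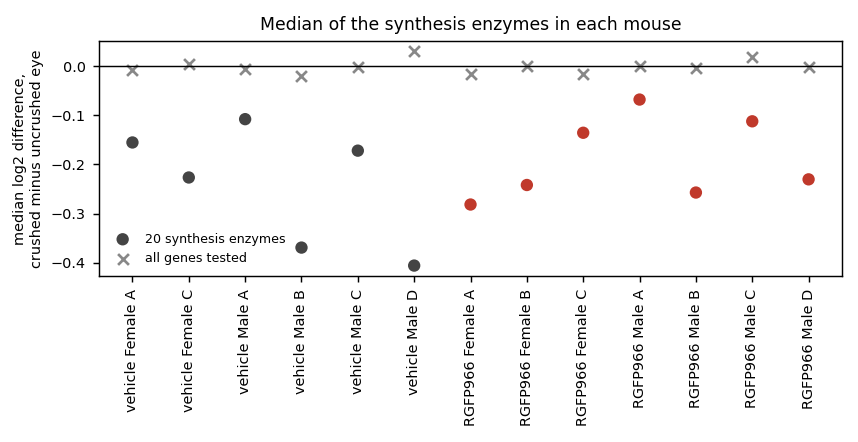
Median log2 difference, crushed minus uncrushed eye, over the 20 synthesis enzymes in each mouse, beside the same median over all genes tested. The enzyme medians run from -0.41 to -0.07 and the medians of all genes from -0.02 to 0.03.

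Of the 5 genes that control synthesis, 2 fell. Insig1, the membrane protein that holds back SCAP and is itself a target of SREBP (chromosome 5, 28071363 to 28078662, plus strand, mm10), was at 437 to 1003 normalized counts in vehicle CTRL (median 668), 326 to 698 in vehicle ONC (median 504), 538 to 859.9 in RGFP CTRL (median 767) and 406 to 691 in RGFP ONC (median 489). The groups overlapped, with a wide spread in vehicle mice. Insig1 fell by 0.52 ± 0.12 on the log2 scale, to 0.696 times the uncrushed level (adjusted p = 0.0027, limma), in 12 of 13 mice. Srebf2, which encodes the SREBP most tied to cholesterol genes (chromosome 15, 82147181 to 82205379, plus strand, mm10), was at 2033 to 3259 in vehicle CTRL, 1548 to 2364 in vehicle ONC, 1898 to 2881 in RGFP CTRL and 1634 to 2869 in RGFP ONC. These ranges overlapped widely. Srebf2 fell by 0.28 ± 0.08 (adjusted p = 0.019, limma) in 11 of 13 mice, a call that ended without RGFP966 male B, vehicle female A or vehicle female C (adjusted p = 0.05 to 0.0518).

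Srebf1, Scap and Insig2 did not pass. The first, Srebf1, whose protein mainly drives fatty acid synthesis, had a log2 change of -0.04 (adjusted p = 0.734; 3242 to 5085 normalized counts), and Scap, the escort, one of -0.05 (adjusted p = 0.508; 3504 to 4716). Insig2, the second INSIG, had a change of 0.18 ± 0.13 (adjusted p = 0.444; 315 to 785), opposite in sign to that of Insig1.

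The promoters of Hmgcs1, Insig1 and Npc2 are printed to show what regulatory letters stand before a synthesis enzyme, a regulator and a transport gene that changed with crush. The windows are from RefSeq (build GRCm38.p6) and run from 250 bases before to 50 after the RefSeq start site. That site differs from the gene ends printed in this text for these 3 genes, which are from GENCODE. Both strands were searched for a sterol regulatory element (TCACNCCAC), the CCAAT box bound by NF-Y and the GGGCGG box bound by Sp1. Capitals mark the matches, and those on the other strand read as the reverse complement, ATTGG in place of CCAAT or CCGCCC in place of GGGCGG. No match of one motif overlaps a match of another in these windows. Hmgcs1 was taken because it was the only one of the genes past the threshold and with a window that held the sterol element; Insig1 (the largest fall with a window) and Npc2 (the rise with the smallest p) were added after their values were seen.
Hmgcs1 (chr13:119690101-119690400, plus strand): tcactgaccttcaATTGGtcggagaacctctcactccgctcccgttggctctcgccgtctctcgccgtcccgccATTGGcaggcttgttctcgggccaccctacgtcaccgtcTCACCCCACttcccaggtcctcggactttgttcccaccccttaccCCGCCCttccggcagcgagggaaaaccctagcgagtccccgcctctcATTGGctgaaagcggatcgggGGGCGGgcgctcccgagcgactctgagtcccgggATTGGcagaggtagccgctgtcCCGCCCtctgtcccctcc
Insig1 (chr5:28071162-28071461, plus strand): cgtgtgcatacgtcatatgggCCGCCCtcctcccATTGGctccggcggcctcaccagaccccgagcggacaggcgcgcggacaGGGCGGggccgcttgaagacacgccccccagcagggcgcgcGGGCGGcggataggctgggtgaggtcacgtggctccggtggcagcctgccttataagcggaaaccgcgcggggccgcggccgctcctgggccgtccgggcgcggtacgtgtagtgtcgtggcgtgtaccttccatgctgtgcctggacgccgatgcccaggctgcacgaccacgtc
Npc2 (chr12:84773063-84773362, minus strand): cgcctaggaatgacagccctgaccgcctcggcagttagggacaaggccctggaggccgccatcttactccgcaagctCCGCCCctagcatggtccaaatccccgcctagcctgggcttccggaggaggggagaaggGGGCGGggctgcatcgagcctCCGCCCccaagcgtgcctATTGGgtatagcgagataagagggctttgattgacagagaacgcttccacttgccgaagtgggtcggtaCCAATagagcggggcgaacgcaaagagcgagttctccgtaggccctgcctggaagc
The Hmgcs1 window held 1 sterol element, beginning 137 bases before the RefSeq start site, with 4 CCAAT and 3 GGGCGG matches. Insig1 had 1 CCAAT and 3 GGGCGG matches, and Npc2 had 2 and 3. Windows were available for 29 of the 35 genes, 38 windows in all. The sterol element was in 1 of those 38 windows and in 1.24% of all 32851 promoter windows. CCAAT was in 24 of the 38 and in 37.4% of all windows, and GGGCGG was in 29 of the 38 and in 35.7% of all. These are matches of letters within 300 bases, and they say nothing of binding in these retinas.

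Among the genes of uptake and intracellular transport 1 of 4 rose. Npc2, the lysosomal carrier that hands cholesterol to Npc1 (chromosome 12, 84754562 to 84773152, minus strand, mm10), was at 545 to 719 normalized counts in vehicle CTRL (median 608), 709 to 872 in vehicle ONC (median 803), 548 to 658 in RGFP CTRL (median 632) and 694 to 875 in RGFP ONC (median 819.6). In RGFP966 mice every crushed eye was above every uncrushed eye (1.56% of all genes tested), and in vehicle mice the ranges overlapped at their ends. Npc2 rose by 0.37 ± 0.05 on the log2 scale, to 1.29 times the uncrushed level (adjusted p = 7.93e-06, limma), in 13 of 13 mice. Its partner Npc1, the membrane protein of the same lysosomal step, had a change of -0.02 (adjusted p = 0.831; 2199.5 to 3185). Lrp1, a large receptor for lipoproteins and other ligands, had one of 0.01 (adjusted p = 0.982; 1715 to 4261), and Stard4, a cytosolic sterol carrier, one of -0.15 (adjusted p = 0.419; 161 to 328).

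Among the genes of export 1 of 4 rose. Abca1, the exporter that loads cholesterol onto apolipoproteins (chromosome 4, 53030787 to 53159895, minus strand, mm10), was at 782 to 1528 normalized counts in vehicle CTRL (median 1215), 1036 to 1933 in vehicle ONC (median 1639), 907 to 1162 in RGFP CTRL (median 1007) and 1209 to 1537 in RGFP ONC (median 1358). The groups did not overlap in RGFP966 mice and overlapped in vehicle mice, where the spread was wider. Over both treatments 0 of the 35 genes had every crushed eye above every uncrushed eye, against 0.989% of all genes tested. Abca1 rose by 0.40 ± 0.09 on the log2 scale, 1.32 times the uncrushed level (adjusted p = 0.00215, limma), and was higher in the crushed eye of 13 of 13 mice, against 2.49% of all genes tested. Abcg1, an exporter to lipoprotein particles, had a change of -0.02 (adjusted p = 0.902; 2582 to 4268) and did not pass. The LXR receptor genes Nr1h2 (-0.06, adjusted p = 0.53; 1372 to 2077) and Nr1h3 (0.13 ± 0.20, adjusted p = 0.769; 41.8 to 138) did not pass either. Beside these rises, the summed microglial markers rose without overlap between crushed and uncrushed eyes, as given above; their part in the rises of Npc2 and Abca1 was not tested.

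Cholesterol can also be stored as ester or hydroxylated for removal. Soat1, the enzyme that esterifies cholesterol, was at 259 to 533 normalized counts in vehicle CTRL (median 318), 382 to 627 in vehicle ONC (median 469), 405 to 588 in RGFP CTRL (median 434) and 316 to 659 in RGFP ONC (median 406). All of these ranges overlapped, and over both treatments Soat1 did not pass (0.20 ± 0.12, adjusted p = 0.309). Cyp46a1, the neuronal cholesterol hydroxylase, had a change of -0.14 (adjusted p = 0.486; 237 to 526).

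With the crush taken in each treatment alone, fewer genes passed, in groups of 6 and 7 mice. In vehicle mice 7 of the 35 genes fell and 2 rose, against 1.65% and 3.69% of all genes tested (5.34% in either direction). Fdps fell by 0.54 ± 0.09 on the log2 scale (adjusted p = 0.000218, limma), Fdft1 by 0.41 ± 0.09 (adjusted p = 0.00452), and Npc2 rose by 0.36 ± 0.08 (adjusted p = 0.00277); these 3 held with any 1 mouse left out, but Fdft1 did not pass with libraries rescaled to the same total (adjusted p = 0.0712). Dhcr7 fell by 0.39 ± 0.09 (adjusted p = 0.00914), Cyp51 by 0.34 ± 0.09 (adjusted p = 0.026), Msmo1 by 0.31 ± 0.09 (adjusted p = 0.0309), Idi1 by 0.50 ± 0.14 (adjusted p = 0.037) and Hmgcs1 by 0.37 ± 0.11 (adjusted p = 0.0387), and Pmvk rose by 0.47 ± 0.11 (adjusted p = 0.0106). Each of these 6 calls ended when certain single mice were left out, while the direction held. Samples are then fewer, and otherwise the cause was not tested. The Idi1 call ended without any 1 of the 6 vehicle mice (adjusted p = 0.051 to 0.134), and the Pmvk call ended without vehicle female A (0.0621). The Hmgcs1 call ended without RGFP966 female B, female C or male D, or vehicle female A, female C, male A, male B or male D (0.0525 to 0.127). Without vehicle female C or male B, C or D, Cyp51 no longer passed (0.0545 to 0.107). Msmo1 was lost without vehicle female A, female C, male B, male C or male D (0.0501 to 0.105), and Dhcr7 without vehicle female A, male B or male C (0.0542 to 0.0783). Rescaling to the same total also ended the calls of Hmgcs1 (0.222), Idi1 (0.118), Cyp51 (0.193), Msmo1 (0.232) and Dhcr7 (0.109). Dropping the sex term ended those of Hmgcs1 (0.0901), Idi1 (0.105), Cyp51 (0.0848) and Msmo1 (0.0651). Fitting only the groups compared ended those of Hmgcs1 (0.0735), Idi1 (0.0609), Cyp51 (0.104), Msmo1 (0.0741) and Dhcr7 (0.0568). With no filter on the mean Hmgcs1 (0.0619) and Idi1 (0.0587) did not pass, nor did Hmgcs1 with quantile normalization (0.0516).

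In RGFP966 mice 3 of the 35 genes fell and 1 rose, against 1.33% and 3.34% of all genes tested (4.67% in either direction). Fdps fell by 0.41 ± 0.09 on the log2 scale (adjusted p = 0.00268, limma), Fdft1 by 0.36 ± 0.08 (adjusted p = 0.00715) and Hmgcs1 by 0.34 ± 0.10 (adjusted p = 0.0407), and Npc2 rose by 0.37 ± 0.07 (adjusted p = 0.000936). The Fdft1 call ended without RGFP966 female A (adjusted p = 0.0503). The Hmgcs1 call ended without RGFP966 female A, B or C, RGFP966 male B or D, or vehicle female A, female C or male A (0.0509 to 0.179). Rescaling to the same total ended the calls of Fdft1 (0.061) and Hmgcs1 (0.175), and Hmgcs1 did not pass with no sex term (0.0955) or no filter (0.0622). The median log2 change of the 20 enzymes was -0.26 in vehicle mice and -0.19 in RGFP966 mice. Whether the crush response differed between treatments is answered by the interaction, for which 0 of the 35 genes and 0% of all genes tested passed.

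**Figure D4:**
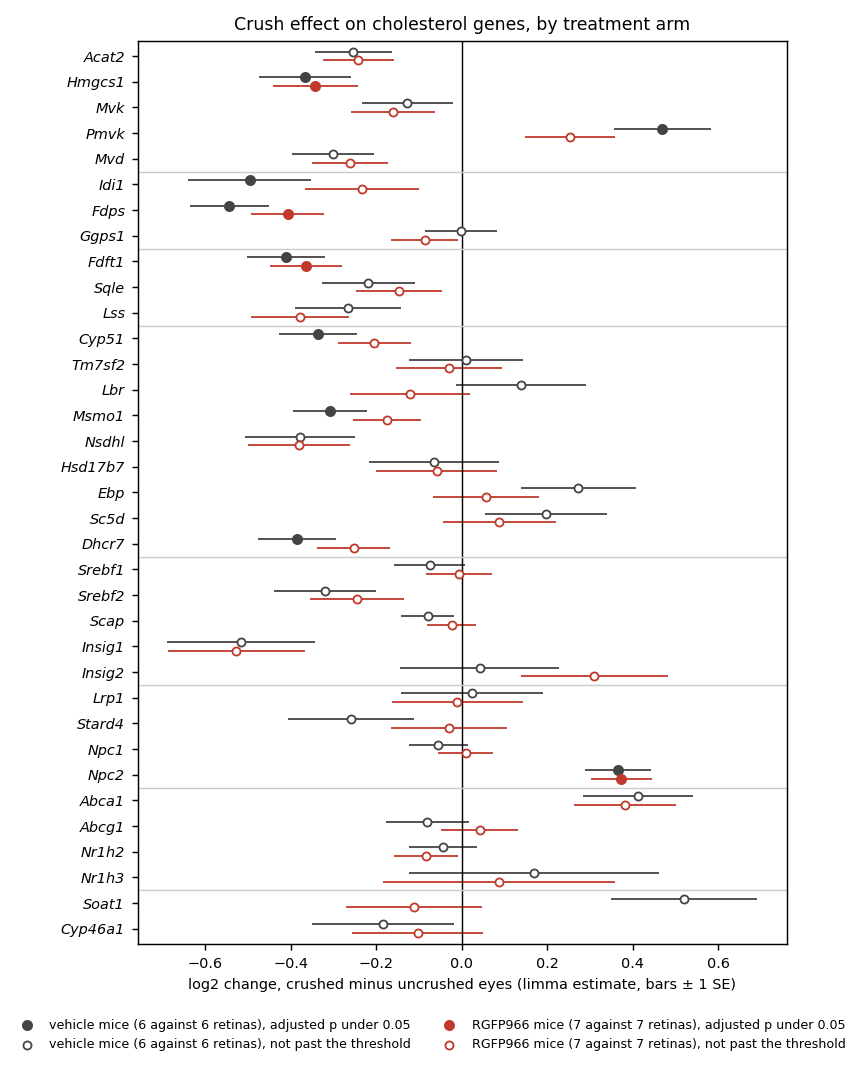
Log2 change in normalized count, crushed minus uncrushed eyes, for each of the 35 genes by role, in vehicle mice (grey, 6 mice) and in RGFP966 mice (red, 7 mice); points are limma estimates, bars are ± 1 SE, and filled points passed the threshold. Fdps lies at -0.54 and -0.41 and Npc2 at 0.36 and 0.37 in vehicle and RGFP966 mice.

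The interaction estimate is the crush effect in RGFP966 mice minus that in vehicle mice. It was 0.14 ± 0.13 (SE, log2) for Fdps, 0.13 ± 0.13 for Dhcr7, 0.13 ± 0.13 for Cyp51 and 0.13 ± 0.12 for Msmo1, each slightly larger than its SE. It was 0.05 ± 0.12 for Fdft1, 0.02 ± 0.15 for Hmgcs1, -0.01 ± 0.24 for Insig1, 0.01 ± 0.10 for Npc2 and -0.03 ± 0.17 for Abca1. The smallest p belonged to Soat1, at -0.63 ± 0.23 (95% interval -1.11 to -0.15, unadjusted p = 0.0118, adjusted p = 1, limma). Soat1 was higher in the crushed eye of 6 of 6 vehicle mice (0.52 ± 0.17, adjusted p = 0.0806) and lower in 5 of 7 RGFP966 mice (-0.11 ± 0.16, adjusted p = 0.825), values that did not pass in either treatment. Next were Pmvk (-0.22 ± 0.15, unadjusted p = 0.173) and Idi1 (0.26 ± 0.19, unadjusted p = 0.189). Of the 15773 genes tested, 327 had an unadjusted p under 0.05 for the interaction, below the share of about 1 in 20 that chance alone gives.

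For RGFP966 against vehicle 0 of the 35 genes passed the threshold in crushed eyes and 0 in uncrushed eyes, as did 0% of all genes tested in each (limma). At an unadjusted p under 0.05 there were 403 of the 15773 genes tested in crushed and 782 in uncrushed eyes. Neither count was above the share of about 1 in 20 that chance alone gives. Among the 35 there were 0 and 2, again below or near that share. In uncrushed eyes those were Srebf1, with a log2 difference of -0.23 ± 0.08 (95% interval -0.39 to -0.06, unadjusted p = 0.00923, adjusted p = 0.913), and Soat1, at 0.42 ± 0.17 (0.08 to 0.76, unadjusted p = 0.017, adjusted p = 0.913). Srebf1 was at 3757 to 5085 normalized counts in vehicle CTRL and 3496 to 4649 in RGFP CTRL, with overlap. Fdps had the next smallest p (-0.16 ± 0.09, unadjusted p = 0.0871).

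In crushed eyes the smallest p values belonged to Srebf1 (-0.16 ± 0.08, unadjusted p = 0.0626), Sc5d (-0.26 ± 0.14, unadjusted p = 0.0697) and Ebp (-0.23 ± 0.13, unadjusted p = 0.0824), each with an adjusted p of 1. The median log2 difference of the 20 enzymes between treated and vehicle mice was -0.02 in crushed and -0.02 in uncrushed eyes. The 95% intervals of the single genes reached from -0.79 to 0.54 in crushed and from -0.71 to 0.76 in uncrushed eyes, with Nr1h3 setting the lower ends. For Fdft1 the intervals were narrower, -0.11 to 0.25 in crushed and -0.16 to 0.20 in uncrushed eyes, and for Fdps they were -0.20 to 0.16 and -0.34 to 0.02. The test does not show that the treatments acted alike.

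**Figure D5:**
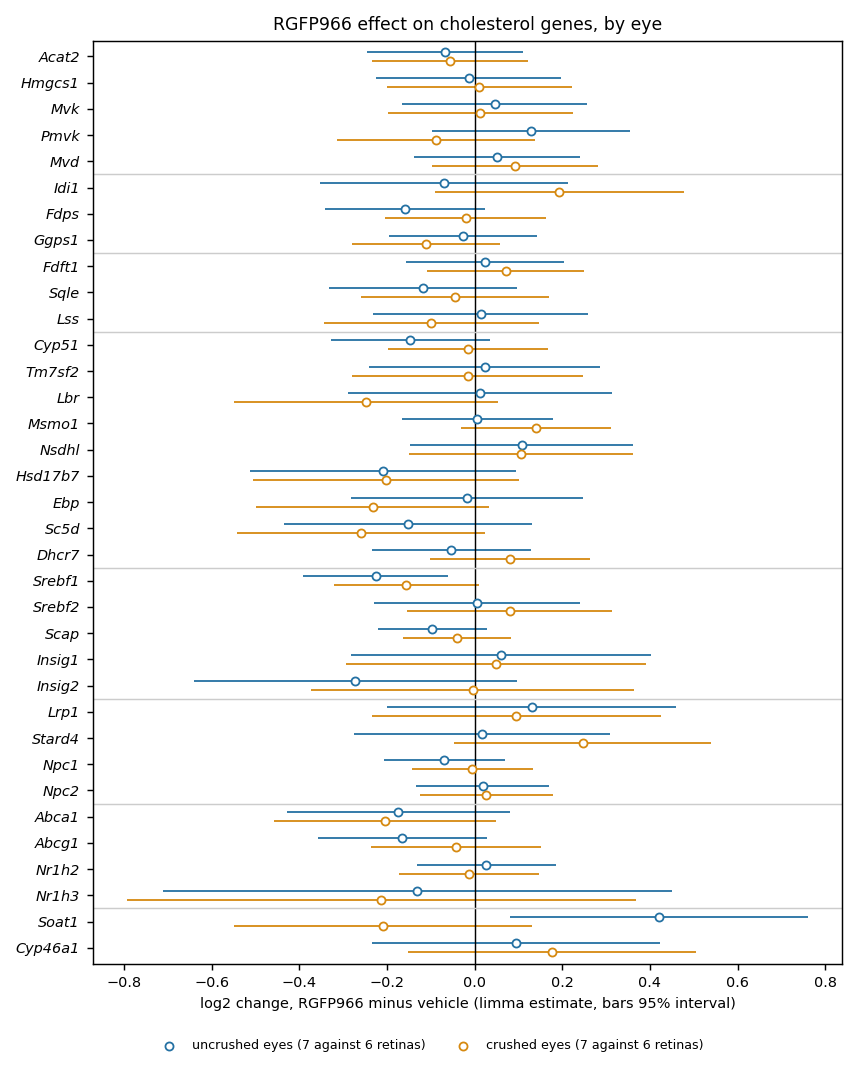
Log2 difference in normalized count, RGFP966 minus vehicle, for the 35 genes in uncrushed and in crushed eyes (points; bars are 95% confidence intervals from limma). No gene passes the threshold in either; the intervals reach from -0.71 to 0.76 in uncrushed and from -0.79 to 0.54 in crushed eyes.

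Sex was in the model as a term, and 7 of the 35 genes differed between males and females: 4 were higher and 3 lower in males, against 5.67% and 5.26% of all genes tested (10.9% in either direction). Lrp1, the lipoprotein receptor, had per-mouse means of both eyes of 3361 to 4176 normalized counts in 5 females (median 3543) and 2118 to 3182 in 8 males (median 2820.5), without overlap (males below all females in 2.06% of all genes tested). Its male minus female log2 difference was -0.46 ± 0.12 (adjusted p = 0.0198, limma). Higher in males were Hsd17b7 (0.38 ± 0.11, adjusted p = 0.0286), Idi1 (0.35 ± 0.10, adjusted p = 0.0308), Srebf2 (0.28 ± 0.08, adjusted p = 0.0338) and Cyp51 (0.23 ± 0.06, adjusted p = 0.0278). Idi1 was at 364 to 419 in females and 431 to 618 in males, and Cyp51 at 507 to 563 and 573 to 764, both without overlap (males above all females in 2.17% of all genes tested). Srebf2, Hsd17b7 and Tm7sf2 overlapped between the sexes. Pmvk was at 488 to 603 in females and 400 to 485 in males, without overlap. Acat2 (259 to 285.52 in females, 285.57 to 363 in males) and Ggps1 (1010 to 1113, 1128 to 1284) did not overlap either. Neither of these passed (adjusted p = 0.0843 and 0.0819, limma). Tm7sf2 (-0.30 ± 0.09, adjusted p = 0.0418) and Pmvk (-0.25 ± 0.08, adjusted p = 0.0446) were lower in males. Both calls ended with libraries rescaled to the same total (adjusted p = 0.0812 and 0.0747, limma) and with no filter on the mean (0.0662 and 0.0678), and that of Srebf2 ended with no filter (0.0557).

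This fit counts both eyes of a mouse as separate samples. With 1 value per mouse, the mean of both eyes (chosen after seeing the data), the 7 differences had adjusted p values of 0.011 to 0.0412 in limma. Of the 15773 genes tested, 1982 passed with 1 value per mouse, against 1725 with both eyes as separate samples. In the fit with both eyes as separate samples, each of the 7 calls ended when certain single mice were left out, while the direction held. All 7 ended without vehicle female A (adjusted p = 0.0623 to 0.126, limma) and without RGFP966 female B. With 1 of 8 other mice left out in turn, 1 to 6 of the 7 ended; these were RGFP966 female A, female C, male B, male C and male D and vehicle female C, male A and male B.

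Genes of neighbouring pathways were counted the same way for crush over both treatments. Of 11 genes of fatty acid synthesis, the other main program of the SREBPs, 0 fell and 1 rose, the elongase Elovl5 (0.30 ± 0.10, adjusted p just under the threshold). Of 6 lipoprotein receptor genes and of 8 genes that cut SREBP or mediate sterol-driven degradation, 0 passed. Among 11 genes that use isoprenoids for dolichol, ubiquinone or prenylation 0 passed, although 10 were below 0 (median -0.07).

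Single genes of the remaining lists changed in both directions. Of 6 other export genes and LXR targets 1 rose and 1 fell: Lpl, the lipoprotein lipase, rose by 0.61 ± 0.11 on the log2 scale (adjusted p = 0.000374, limma), and Abcg4, a neuronal sterol exporter, fell by 0.14 ± 0.04 (adjusted p = 0.0406). Of 8 tested genes of oxysterols and cholesteryl esters 1 rose, Cyp39a1, an oxysterol hydroxylase (0.61 ± 0.10, adjusted p = 3.82e-05). In that list 7 of the 8 were above 0 and 1 below, with a median log2 change of 0.33. Of 6 sterol transfer genes, Stard3 rose (0.25 ± 0.07, adjusted p = 0.0125), and Gramd1b (-0.16 ± 0.04, adjusted p = 0.00658) and Gramd1a (-0.24 ± 0.07, adjusted p = 0.0323) fell. With libraries rescaled to the same total, Abcg4, Gramd1b and Gramd1a did not pass (adjusted p = 0.565, 0.313 and 0.203), nor with quantile normalization (0.281, 0.0934 and 0.069). With no filter on the mean Abcg4 (0.0609) and Gramd1a (0.0515) did not pass, nor did Gramd1a with no sex term (0.121). Elovl5 did not pass with quantile normalization (0.0517), no filter (0.0761), a pseudocount of 10 (0.0505) or no sex term (0.0569). The Elovl5 call ended without any 1 of 8 mice, that of Abcg4 without any 1 of 9 and that of Gramd1a without any 1 of 7. Of all these neighbouring genes 0 passed in the drug comparisons.

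Scaling set how many of the enzyme falls passed. The crushed eye had the lower library total in every mouse except RGFP966 male A. Rescaling to the same total therefore raised crushed against uncrushed eyes in the other mice. With every library rescaled to the same total, which moved the median of all genes by 0.09 (log2) and their split from 1069 higher and 786 lower to 1987 higher and 319 lower, 6 of the 35 genes fell: Fdps, Fdft1, Dhcr7, Hmgcs1, Nsdhl and Insig1. The calls of Acat2 (adjusted p = 0.119), Mvd (0.07), Idi1 (0.0618), Lss (0.0726), Cyp51 (0.0726), Msmo1 (0.114) and Srebf2 (0.155) ended, and all 7 kept a value below 0. The median of the 20 enzymes was then -0.15, against 0.08 for all genes. Parts of some exons are shared with other annotated genes, 774 of 4227 exon bases of Fdft1 with Ctsb on the other strand and 1124 of 4208 of Fdps with Gm43738 on the same strand. Hmgcs1 shares 557 of 4594, Lss 381 of 10787, Idi1 323 of 3505 and Cyp51 166 of 4415 exon bases with genes on the other strand. Tm7sf2, called lower in males, shares 532 of 4403 with Vps51 on the same strand. Some genes without a call share exon bases too, such as Scap (985 of 7443), Npc1 (601 of 11317) and Lbr (509 of 4761). The labels do not state a stranded kit, so reads of such overlaps cannot be told apart. Acat2 and Idi1 have near copies, Acat3 and Idi2, whose mean levels were 15.5 and 2.45 normalized counts, and how reads were divided between the copies is uncertain.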

How the data were processed

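The deposited table holds a signal that the authors describe as counts normalized with DESeq2 (version not given in the sources used here), from reads assigned to mm10 with kallisto 0.46.1, per the submitters' processing notes. Whole reads could not be recovered: 37.8 to 64.4% of low values per library lay within 0.05 of a whole read (median 51.7%), so no count test was run; estimated depth was 16000000 to 24700000 reads per library (median 19500000). One column name occurred 2 times, so 2 columns were not used, and 26 date-like gene symbols (0.115% of the total) were left out. Some genes of the pathway are not reported here.

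Values were transformed as log2(value + 1), on which fold changes of low genes are understated, and 15773 genes with a mean of at least 10 were fitted with limma 3.58.1 (R 4.3.3; trended prior; 4 groups plus sex, all sharing 1 estimate of the spread). Tests were two-sided with Benjamini-Hochberg adjustment over all genes tested and a threshold of 0.05; the script was tested on simulated data. Errors are SE for log2 changes and SD for levels. Members and lists were chosen with earlier results of these data known. Named were all 35 genes, in each comparison those past the threshold and the 3 with the smallest p, and up to 3 past the threshold from each neighbouring list. The series compares the retinas of both eyes of each mouse; pairs were formed from treatment, sex and letter shared in the titles. The correlation of their deviations from the group means was -0.20 to 0.34 (median 0.12), above 0.1 in 8 of 13 mice. These deviations keep the difference between the sexes, and both eyes of a pair share their sex. The correlation therefore cannot show that a pair is 1 mouse. With sex in the model the consensus correlation was -0.03. Alternatives were the pseudocount, the filter, scaling, a block on the mouse, the sex term, the groups fitted, array weights and each mouse left out in turn. Gene positions are from GENCODE vM21 and promoter sequences from RefSeq, both of GRCm38 (mm10).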

Additional observations from a re-analysis of the deposited data

Results flagged for a closer look

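In 7 of 140 sets (35 genes in 4 groups of 6 or 7 retinas) 1 retina lay far from the rest of its group by Dixon's test, where chance gives about 1 in 20. All 7 were high values, in normalized counts. Hmgcs1 was 1398 in RGFP ONC male C, with the next retina at 1087, and Ebp in the same retina was 316, with the next at 247. In vehicle CTRL male B Fdft1 was 1109 (next 903) and Msmo1 was 866 (next 661). Npc1 was 3185 in vehicle CTRL male D (next 2706). Lbr was 792 in RGFP CTRL female B (next 584) and 757 in RGFP ONC female A (next 523). The falls of Hmgcs1, Fdft1 and Msmo1 over both treatments held without any 1 mouse. No explanation of these values was tested.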

How the results depend on the processing

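Of 1111 recomputed gene values, 950 kept their direction and side of the threshold, 161 kept the direction but no longer passed and 0 reversed. These recompute 52 gene results, those past the threshold or with the smallest p in a comparison. Calls gained by other genes are not among them. The drug and interaction results included had not passed in the main fit. Their staying on that side says little of how stable the calls are. For crush over both treatments, leaving out each mouse in turn gave 12 to 14 genes lower and 3 higher; with libraries rescaled to the same total 6 were lower, and the median enzyme difference within a mouse was -0.11 in place of -0.23. In vehicle mice (2 higher, 7 lower) the same rescaling gave 4 higher and 1 lower, with a shift of 0.11 in the median of all genes and a split over all genes of 977 higher and 96 lower in place of 582 and 260; no sex term gave 3 lower, and fitting only the groups compared 2 lower. In RGFP966 mice (1 higher, 3 lower) rescaling gave 2 higher and 1 lower, with 755 higher and 129 lower over all genes in place of 527 and 210; array weights gave 2 higher and 7 lower, and only the groups compared 2 higher. For males against females (4 higher, 3 lower) no filter gave 1 lower, rescaling 8 higher and 1 lower (over all genes 1567 higher and 568 lower in place of 895 and 830), and array weights 11 higher. Leaving out each mouse gave 1 to 3 higher and 3 to 7 lower in vehicle mice, 1 to 2 higher and 1 to 5 lower in RGFP966 mice, and 0 to 9 higher and 0 to 3 lower for sex; with 1 mouse fewer the samples are fewer, and otherwise the cause was not tested. Srebf2 did not pass without the sex term (adjusted p = 0.0562, limma).

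With a replicate block on the mouse, 13 genes were lower and 3 higher over both treatments (over all genes 1045 higher and 753 lower in place of 1069 and 786). For sex 5 were higher and 3 lower (over all genes 1018 higher and 943 lower in place of 895 and 830). The block changed no call of the 35 genes for crush, and among the neighbouring genes it ended that of Elovl5 (adjusted p = 0.057, limma). Its consensus correlation of -0.03 left this fit close to the one without a block. It therefore says little of how the calls would stand on differences within mice. What sequencing depth limits was not tested.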
